A study of Mus musculus with 265 samples.

Results

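The accessible regions at the promoters of histone genes were examined in single-cell ATAC-seq data from mouse pre-B cells. A region was taken as a histone region when its midpoint lay within 1 kb of the start of a protein-coding histone gene in the GENCODE vM21 annotation, and 48 of 20103 regions met this rule. Of these, 41 lay at replication-dependent genes (symbols beginning Hist1h, Hist2h, Hist3h or Hist4h, called clustered here) and 7 at genes for histone variants (H2af and H3f symbols). Another 8738 regions lay within 1 kb of the start of a protein-coding gene that encodes no histone and are called the other promoters.

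The cells were ERt2-Ikaros inducible B3 cells, a mouse pre-B line. The line carries an inducible Ikaros fused to a hormone receptor domain that answers to 4-hydroxytamoxifen. This fusion moves to the nucleus on treatment and was present at both time-points. The authors describe the treatment as doubling nuclear Ikaros, so the 0-hour cells are a baseline and not cells without it. The 0-hour cells were taken before treatment and the 24-hour cells after 24 hours with 4-hydroxytamoxifen, which the labels give at 20 mM with a further dose near 12 hours. For each time-point 2 runs of the Fluidigm C1 captured the cells whose open DNA was tagged by Tn5 transposase, and the authors deposited a whole-number count for each region and cell. Nothing states that the runs came from separate cultures or that the line is more than 1 clone, so each test sets a difference against the spread between runs alone.

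The matrix held 48 and 47 0-hour cells and 60 and 72 24-hour cells, with run totals of 92639 to 164357 counts and run medians of 1676 to 2898 counts per cell. Of the pre-B cell genes chosen as markers, 7 had a promoter region, including Cd79a, Cd79b and Ebf1, while Rag1 and Rag2 had none. None of 4 T cell markers had a region, and among 4 myeloid markers only Lyz2 did, with 7 counts in all runs together. Across all regions, 11 of 20103 (0.0547%) passed an adjusted p of 0.05 by the quasi-likelihood test of edgeR, 8 of them higher at 24 hours.

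Replication-dependent histone genes supply the core histones H2A, H2B, H3 and H4 and the linker histone H1 that package newly made DNA, and they are transcribed mainly in S phase. They lie in clusters, lack introns and give messages that end in a stem-loop instead of a poly(A) tail. Many H2A and H2B genes stand head to head and share 1 stretch of promoter DNA. Histone variants such as H2A.Z and H3.3 come from genes outside the clusters that are used throughout the cell cycle. Promoters of replication-dependent genes often hold CCAAT boxes, the binding element of NF-Y, and H2B promoters are known for the octamer element bound by POU factors such as Oct-1.

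The sequences between head-to-head H2A and H2B starts are shown first, because the summed counts of these regions differed most between the time-points among the kinds of clustered regions. The matrix held 8 such regions, called shared here. Each sequence was read from the mm10 chromosomes distributed by RefSeq, runs from 5′ to 3′ on the + strand and ends before the transcription starts of both annotations. Capitals mark CCAAT on either strand and the letters ATTTGNAT on either strand, which are the octamer ATTTGCAT with its sixth base left free.
Hist1h2ag/Hist1h2bj, chr13:22042950-22043197, + strand: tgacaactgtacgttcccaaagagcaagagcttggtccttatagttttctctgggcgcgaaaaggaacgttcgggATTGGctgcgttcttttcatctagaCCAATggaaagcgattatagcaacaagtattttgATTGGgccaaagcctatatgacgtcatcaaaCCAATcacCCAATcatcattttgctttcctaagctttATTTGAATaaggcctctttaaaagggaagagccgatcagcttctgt
Hist1h2bf/Hist1h2ad, chr13:23574208-23574380, + strand: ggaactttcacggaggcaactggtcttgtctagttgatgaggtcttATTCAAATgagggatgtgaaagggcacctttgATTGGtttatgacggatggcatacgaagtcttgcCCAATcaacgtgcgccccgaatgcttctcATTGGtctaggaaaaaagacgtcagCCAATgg
Hist1h2bl/Hist1h2ai, chr13:21716184-21716411, + strand: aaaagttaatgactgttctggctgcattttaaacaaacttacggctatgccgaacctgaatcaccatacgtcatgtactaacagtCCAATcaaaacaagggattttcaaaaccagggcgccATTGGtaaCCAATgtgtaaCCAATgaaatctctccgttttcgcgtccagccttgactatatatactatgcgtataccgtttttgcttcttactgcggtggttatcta
Hist1h2ae/Hist1h2bg, chr13:23571221-23571395, + strand: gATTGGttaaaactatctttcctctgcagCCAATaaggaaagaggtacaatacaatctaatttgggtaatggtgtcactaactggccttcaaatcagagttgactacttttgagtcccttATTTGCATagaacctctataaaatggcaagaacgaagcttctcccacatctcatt
Hist1h2ac/Hist1h2bc, chr13:23683960-23684198, + strand: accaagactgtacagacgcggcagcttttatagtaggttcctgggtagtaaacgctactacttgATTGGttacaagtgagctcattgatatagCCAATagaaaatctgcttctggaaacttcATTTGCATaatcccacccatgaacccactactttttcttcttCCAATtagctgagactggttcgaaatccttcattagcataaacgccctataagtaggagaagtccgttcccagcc
Hist1h2ah/Hist1h2bk, chr13:22035644-22035820, + strand: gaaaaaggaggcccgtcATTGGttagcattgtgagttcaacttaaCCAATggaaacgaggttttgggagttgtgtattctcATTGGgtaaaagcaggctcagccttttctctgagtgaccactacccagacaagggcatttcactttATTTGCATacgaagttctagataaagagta
Hist1h2an/Hist1h2bp, chr13:21787249-21787460, + strand: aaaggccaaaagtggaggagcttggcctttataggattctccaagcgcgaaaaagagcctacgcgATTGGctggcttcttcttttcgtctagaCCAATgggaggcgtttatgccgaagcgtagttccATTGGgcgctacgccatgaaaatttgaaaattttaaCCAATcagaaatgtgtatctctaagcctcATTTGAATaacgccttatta
Hist2h2ac/Hist2h2be, chr3:96220881-96221118, + strand: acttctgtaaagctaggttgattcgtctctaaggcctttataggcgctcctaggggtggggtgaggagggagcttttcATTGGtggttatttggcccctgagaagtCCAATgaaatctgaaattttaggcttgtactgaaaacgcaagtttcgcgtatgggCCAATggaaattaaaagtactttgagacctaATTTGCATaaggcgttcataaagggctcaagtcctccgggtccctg
The stretch before Hist1h2bj and Hist1h2ag held 5 CCAAT boxes, the stretch before Hist2h2be and Hist2h2ac held 3, and the one before Hist1h2ae and Hist1h2bg held 2. The octamer with 1 free base stood once in 7 of the 8 printed stretches and was missing from the one between Hist1h2bl and Hist1h2ai. In the stretch between Hist1h2bf and Hist1h2ad it was written on the other strand.

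For contrast, stretches before single H2A and H2B genes, an H3 gene, an H4 gene and a pair of variant genes are given on the strand of the gene, with the same marking.
Hist1h2bm, chr13:21721887-21722036, + strand: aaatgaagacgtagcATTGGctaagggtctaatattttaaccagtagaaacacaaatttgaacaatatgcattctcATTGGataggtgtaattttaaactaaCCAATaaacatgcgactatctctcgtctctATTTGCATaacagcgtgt
Hist1h2be, chr13:23621138-23621257, - strand: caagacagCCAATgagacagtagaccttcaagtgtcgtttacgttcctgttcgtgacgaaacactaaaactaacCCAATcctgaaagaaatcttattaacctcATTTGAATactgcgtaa
Hist1h3a, chr13:23762387-23762508, - strand: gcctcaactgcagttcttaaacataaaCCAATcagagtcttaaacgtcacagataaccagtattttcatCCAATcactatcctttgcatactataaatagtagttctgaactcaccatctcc
Hist1h4d, chr13:23581484-23581567, + strand: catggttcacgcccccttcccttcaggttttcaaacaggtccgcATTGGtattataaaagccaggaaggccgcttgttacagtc
Hist1h2ab, chr13:23751017-23751087, + strand: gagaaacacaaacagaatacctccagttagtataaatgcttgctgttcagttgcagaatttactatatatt
H2afz, chr3:137864367-137864486, + strand: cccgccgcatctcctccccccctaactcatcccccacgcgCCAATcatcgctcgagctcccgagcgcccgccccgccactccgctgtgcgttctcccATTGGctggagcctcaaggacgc
H2afx, chr9:44334473-44334682, + strand: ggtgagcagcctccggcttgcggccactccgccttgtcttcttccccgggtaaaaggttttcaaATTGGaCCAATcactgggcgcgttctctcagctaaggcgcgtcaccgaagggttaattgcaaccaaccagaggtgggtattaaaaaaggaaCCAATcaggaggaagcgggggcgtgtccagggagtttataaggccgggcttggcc
The Hist1h2bm stretch held 3 CCAAT boxes and an exact octamer, and 4 of the 8 shared stretches also held an exact octamer. The Hist1h2ab stretch of 71 bases held neither, although the window of 200 bases around this region held 2 CCAAT boxes. Both variant stretches held CCAAT boxes and no octamer.

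In windows of 200 bases centred on the regions, CCAAT was found in 8 of 8 shared regions, 9 of 10 single H2A or H2B regions, 9 of 9 H3 regions, 3 of 11 H4 regions, 2 of 3 H1 regions and 5 of 7 variant regions. The same letters were found in 33.9% of the other promoters. At least 2 boxes stood in 16 of the 18 H2A and H2B windows, against 13.1% of the other promoters. The exact octamer ATTTGCAT was found in 6 of the 18 H2A and H2B windows, in none of the 23 windows at H3, H4 and H1 genes, in none of the 7 variant windows and in 0.85% of the other promoters. With the sixth base free, a form chosen after the sequences had been seen, 11 of the 18 windows held it, against 1.28% of the other promoters. A TATAAA box was found in 20 of 41 clustered windows and in 2.39% of the other promoters. Letters of the E2F element (TTTCGCGC, TTTGGCGC, TTTCCCGC or TTTGCCGC) were found in 9 of 41 clustered windows, namely 5 of 11 H4, 3 of 8 shared and 1 of 10 single H2A or H2B windows, and in 3.32% of the other promoters. The ETS letters CCGGAAGT were in none of the 48 histone windows and in 8.77% of the other promoters. The Ikaros core TGGGAA was found in 6 of the 48 histone windows and in 13.4% of the other promoters. Both strands were searched, matches of ATTTGCAT are also matches of ATTTGNAT, and a match is a run of letters and not a measured site. The shares were not adjusted for base composition, which differs between these groups. Windows of neighbouring regions at Hist1h4a and at Hist2h2ab overlap and were counted separately.

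The clustered windows also differed from other promoters in base composition. Their median G+C content was 46% with a median of 8 CpG dinucleotides per 200 bases, against 65.5% and 18 in the other promoters. The variant windows, with a median of 72% and 24 CpG, were richer in G+C than the other promoters. Within the clustered genes the shared windows had a median G+C content of 43%, the H4 windows 56% and the H1 windows 66.5%.

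Not every histone gene had a region. Of 82 protein-coding histone genes, 50 had at least 1, namely 44 of 67 clustered and 6 of 15 variant genes. The variant genes counted here include those with H1f symbols, none of which had a region. The main cluster on chromosome 13 had regions at 39 of 54 genes, the chromosome 3 cluster at 3 of 10, the chromosome 11 pair at 1 of 2, and Hist4h4 on chromosome 6 had 1. Of 12 head-to-head H2A and H2B pairs, 8 had a region. The pairs with none were Hist1h2ak with Hist1h2bn, Hist1h2bq with Hist1h2ao, Hist1h2ap with Hist1h2br, and the pair Hist1h2ba and Hist1h2aa. The last of these pairs encodes histones known from the testis, as does Hist1h1t, which also had no region.

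Because histone genes have near-identical copies, the share of 30-base windows that occur once in mm10 was computed for the 300 bases before each start, 30 bases being what remained of a read after the authors' trimming. Of the 32 genes with no region, 11 had fewer than 50% of these windows unique, whereas none of the 50 genes with a region did, the lowest among them being 64.1%. Windows before Hist1h2bq, Hist1h2ao, Hist1h4m, Hist1h4n, Hist1h2ap and Hist1h2br were all repeated elsewhere. For these genes a closed promoter and reads that cannot be placed cannot be told apart. Other genes with no region, such as Hist1h2ak, Hist1h2bn and Hist1h1d, had 100% of their windows unique. Among the regions themselves, 11 of 41 clustered regions held some repeated windows, against 6.40% of the other promoters. These 11 comprised 6 of the 11 H4 regions, 4 of the 9 H3 regions and 1 single H2B region, and none of the shared regions.

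**Figure D1:**
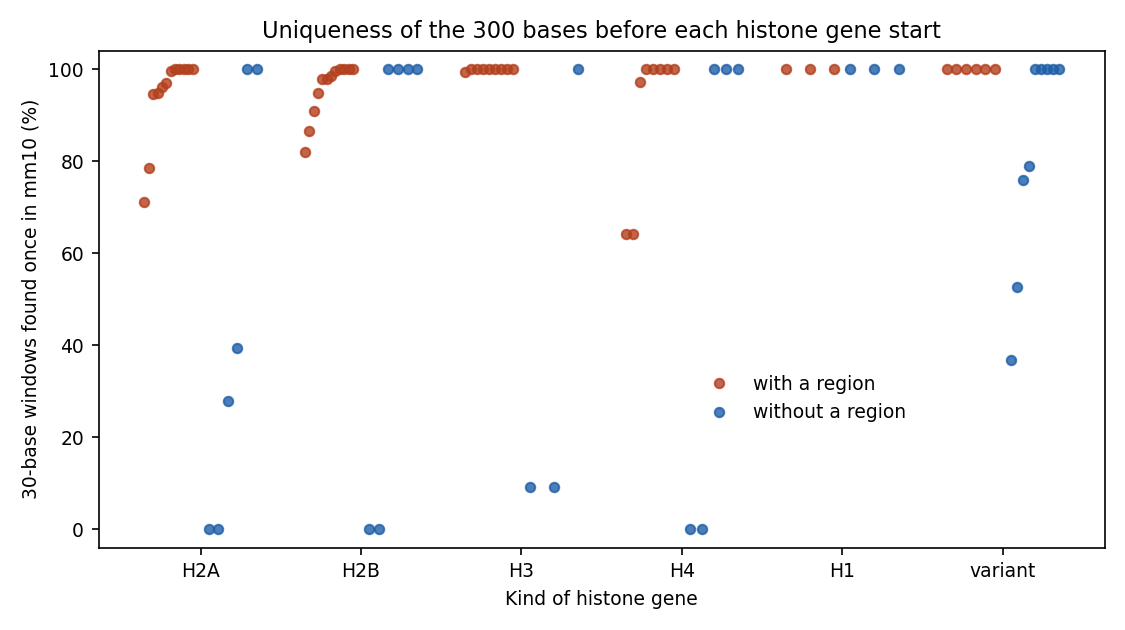
Percentage of 30-base windows found once in mm10 in the 300 bases before the start of each of 82 histone genes (y axis), by kind of gene (x axis), with 1 point per gene. Genes with a region sit between 64.1% and 100%, and 11 of the 32 genes without a region lie under 50%.

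All 41 clustered regions together held 352 and 195 counts at 0 hours and 356 and 456 counts at 24 hours, run 1 before run 2. As a share of all promoter counts this was 0.42% (95% interval 0.377 to 0.466%) and 0.434% (0.375 to 0.499%) at 0 hours, and 0.498% (0.448 to 0.553%) and 0.482% (0.439 to 0.528%) at 24 hours. The 24-hour shares were both above the 0-hour shares, and each interval overlapped at least 1 interval of the other time-point. The intervals are exact binomial ones and cover counting error only. The mean share differed by 0.20 on the log2 scale. With 2 runs against 2, an exact permutation test cannot reach a p of 0.05, and none was run on these sums. The difference was 0.52 when all regions were the denominator, where the other promoters together differed by 0.32, and 0.10 in counts per cell, where the other promoters differed by -0.11. The other promoters held 50.8% and 48.3% of all counts at 0 hours and 57.9% and 66% at 24 hours.

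The 7 variant regions held 78 and 51 counts at 0 hours and 75 and 106 counts at 24 hours. Their shares of promoter counts were 0.0930% (0.0735 to 0.116%), 0.113% (0.0845 to 0.149%), 0.105% (0.0826 to 0.132%) and 0.112% (0.0917 to 0.135%), in the order of the runs, and the time-points overlapped. The mean share differed by 0.07 on the log2 scale, and this was 0.22 without 0-hour run 2 and -0.06 without 0-hour run 1. The log2 ratio of clustered to variant counts differed between the time-points by 0.12, with an SD of 0.14 between runs of a time-point. This difference was 0.0037 without 0-hour run 2 and 0.24 without 0-hour run 1. Per 100 bases of region, the median level was 60.3 CPM (TMM-normalised counts scaled to a common library size) in variant regions, 45.5 in clustered regions and 39.3 in the other promoters.

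The clustered regions were also summed by kind, a split made after their values had been seen and with no test between the kinds. The 8 shared H2A and H2B regions held 67 and 44 counts at 0 hours and 113 and 196 counts at 24 hours. Their shares of promoter counts were 0.0799% (0.0619 to 0.101%) and 0.0979% (0.0711 to 0.131%) at 0 hours, and 0.158% (0.130 to 0.190%) and 0.207% (0.179 to 0.238%) at 24 hours. The time-points did not overlap, and neither did their intervals except between 0-hour run 2 and 24-hour run 1. The mean share was 1.04 higher on the log2 scale at 24 hours, and between 0.83 and 1.22 higher with any 1 of the 4 runs left out. The 10 regions at single H2A or H2B genes held 96, 61, 80 and 82 counts in the order of the runs, and their mean share differed by -0.33, or by -0.53 to -0.16 without 1 run. Their shares of promoter counts were 0.114% (0.0927 to 0.14%) and 0.136% (0.104 to 0.174%) at 0 hours and 0.112% (0.0888 to 0.139%) and 0.0867% (0.0689 to 0.108%) at 24 hours, lower at 24 hours but with overlapping intervals. As a share of all counts the time-points overlapped, with a log2 difference of -0.02, while the shared regions differed by 1.38 on that scale and by 0.98 in counts per cell. Sums at H3 genes (92, 43, 77 and 85 counts), H4 genes (73, 31, 66 and 72) and H1 genes (24, 16, 20 and 21) gave log2 differences in share of -0.06, 0.11 and -0.36. Without 1 run these lay from -0.19 to 0.07, from -0.05 to 0.29 and from -0.53 to -0.19. With all counts as denominator they were 0.26, 0.42 and -0.04.

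**Figure D2:**
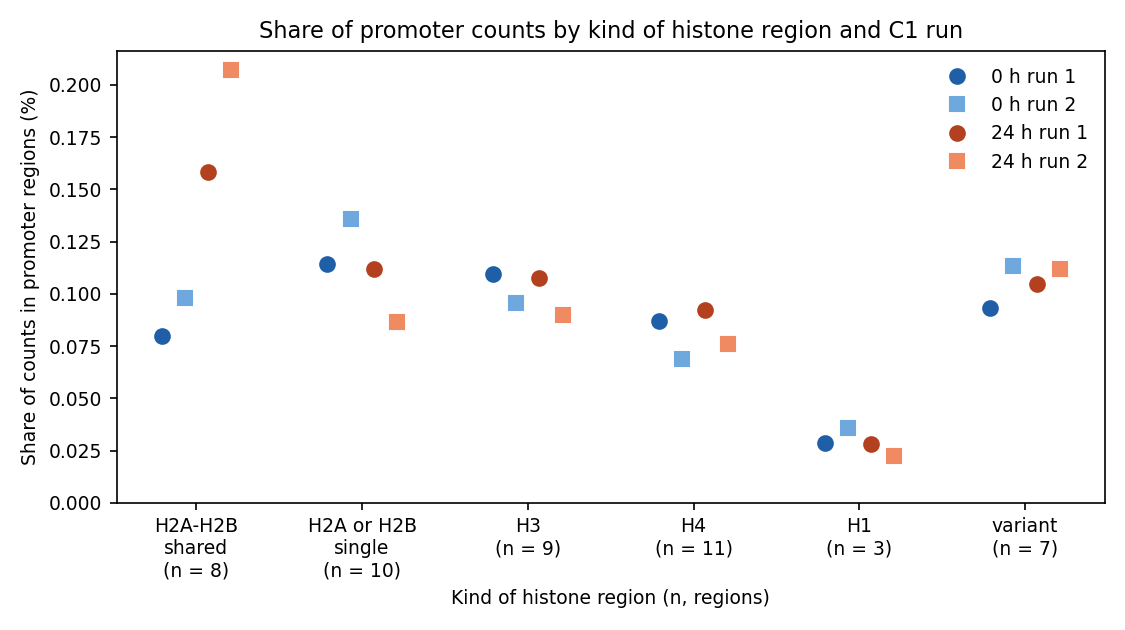
Percentage of all promoter counts (y axis) that fell in each kind of histone region (x axis), with 1 point per C1 run. The shared H2A and H2B regions hold 0.158% and 0.207% at 24 hours against 0.0799% and 0.0979% at 0 hours, the single H2A or H2B and the H1 regions have lower shares of promoter counts at 24 hours in both runs, which is not so for their shares of all counts, and the points of the H3, H4 and variant regions overlap between time-points.

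Region by region, none of the 48 histone regions passed an adjusted p of 0.05 by edgeR, and the smallest adjusted p was 0.113. DESeq2 called none either. At an unadjusted p under 0.05 by edgeR, 8 histone regions were higher at 24 hours, against 5.11% of all regions and 7.63% of the other promoters, and none was lower, against 7.0% of all regions and 1.92% of the other promoters. By DESeq2, 5 histone regions had an unadjusted p under 0.05 and were higher at 24 hours, against 2.25% of all regions. The DESeq2 share among the other promoters, the closer background, was not computed. Of the 48 regions, 11 were seen in fewer than 5 cells at 1 or both time-points, and 1 of the 8 with a low edgeR p, at H2afy, was seen in no 0-hour cell. In normalised counts, 24-hour values lay wholly above 0-hour values for 17 of the 48 regions (35.4%), against 19.3% of all regions and 28% of the other promoters. The reverse order was seen for 7 regions (14.6%), against 25.7% of all regions and 13.1% of the other promoters. Of the 8 shared regions, 4 had an unadjusted p under 0.05 and 5 had higher 24-hour values throughout. Of the 10 single H2A or H2B regions, 1 had such a p, 2 had higher 24-hour values throughout and 6 had higher 0-hour values throughout. These 6 are not separate genes, since they include both regions of Hist1h2be and both of Hist2h2ab. Counts were few in the Hist2h2ab regions, 9 and 6 over all runs, and in that of Hist1h2ab, with 12. The median log2 change was 0.28 over the clustered regions and 0.44 over the variant regions, beside 0.33 over the other promoters and -0.06 over all regions. Without 1 run the clustered median lay from 0.19 to 0.65 and the variant median from 0.29 to 0.58. That of the other promoters lay from 0.17 to 0.52, and the order of the medians changed between these fits. By kind the medians were 1.34 for shared regions, -0.50 for single H2A or H2B regions, -0.32 for H3, 0.28 for H4 and 0.51 for H1. In the 4 fits that each leave out 1 run, these medians lay from 0.90 to 1.58 for shared regions, from -0.61 to -0.40 for single H2A or H2B regions, from -0.50 to 0.40 for H3, from 0.13 to 0.65 for H4 and from -0.16 to 0.90 for H1. With thinned cells the H1 median of 1.23 and the H3 median of 0.55 stood beside a shared median of 0.70. With the number of cells as the scale, every region shifted down together, the median of all regions from -0.06 to -0.51, and the shared median was 0.84. Without 24-hour run 1, where the lone 24-hour run is assumed to vary like the 0-hour runs, 797 of all regions and 6 histone regions passed the threshold. These 6 were the shared regions of Hist1h2ai with Hist1h2bl, Hist1h2ad with Hist1h2bf and Hist1h2ag with Hist1h2bj, and 1 region each at Hist1h2bm, Hist1h3e and Hist1h4a.

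**Figure D3:**
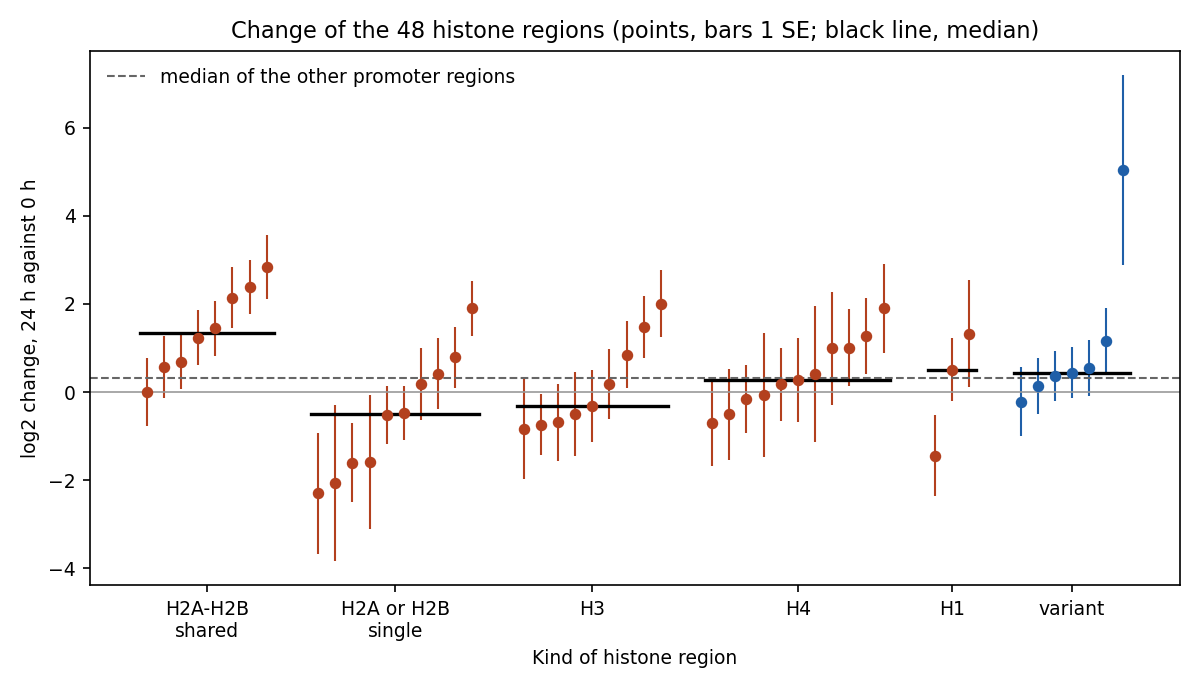
Log2 change of normalised counts at 24 hours against 0 hours (y axis) for each of the 48 histone regions, by kind (x axis), with points for regions, bars of 1 SE, black lines for the median of each kind and a dashed line for the median of the other promoters (0.33). The median of the shared regions (1.34) lies above the dashed line and that of the single H2A or H2B regions (-0.50) below it, and the highest variant point is H2afy, whose fitted value is no bound because it held no count at 0 hours.

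Of the shared regions, that between Hist1h2ag and Hist1h2bj (chr13:22043016-22043160) had the largest log2 change of the clustered genes. It held 4 and 2 counts at 0 hours and 19 and 25 at 24 hours, from 4 of 48, 2 of 47, 12 of 60 and 19 of 72 cells. In CPM this was 24.3 and 20.9 against 154 and 183, so the runs of each time-point lay close together and the time-points far apart. Its log2 change was 2.83 ± 0.73 (SE), with an edgeR adjusted p of 0.113, and the change ranged from 2.69 to 2.97 with any 1 run left out. It encodes an H2A and an H2B histone.

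The region between Hist1h2ad and Hist1h2bf (chr13:23574270-23574403) had the most counts of the clustered genes, 10 and 2 at 0 hours and 27 and 34 at 24 hours. Both 24-hour runs were above both 0-hour runs, with 218 and 249 CPM against 60.6 and 20.9, and the log2 change was 2.38 ± 0.61 (edgeR adjusted p = 0.113). Without 1 run it ranged from 1.93 to 3.44. Between Hist1h2ai and Hist1h2bl (chr13:21716245-21716383) the counts were 4, 6, 10 and 38 in the order of the runs. Most of that difference lay in 24-hour run 2, and the log2 change of 2.14 ± 0.68 (edgeR adjusted p = 0.193) became 1.00 without that run.

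Regions between Hist1h2ae and Hist1h2bg (chr13:23571237-23571365) and between Hist1h2ac and Hist1h2bc (chr13:23683981-23684106) held 12, 4, 13 and 30 counts and 10, 6, 17 and 21 counts. Their 24-hour runs were above their 0-hour runs in normalised counts, with log2 changes of 1.44 ± 0.62 and 1.23 ± 0.63 and edgeR adjusted p of 0.321 and 0.424. For the former the change became 0.80 without 24-hour run 2 and 0.16 with thinned cells. The region of Hist1h2ah and Hist1h2bk (chr13:22035646-22035842) held 9, 12, 15 and 21 counts, with overlapping time-points and a log2 change of 0.68 ± 0.61, which was 0.16 without 0-hour run 1 and 1.32 without 0-hour run 2. The remaining shared regions, of Hist1h2an with Hist1h2bp and of Hist2h2ac with Hist2h2be, had log2 changes of 0.57 and -0.01 and overlapping time-points. Without 1 run these ranged from -0.20 to 1.42 and from -0.54 to 1.23. Hist2h2ac and Hist2h2be belong to the chromosome 3 cluster, and the other 7 shared regions to the chromosome 13 cluster.

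**Figure D4:**
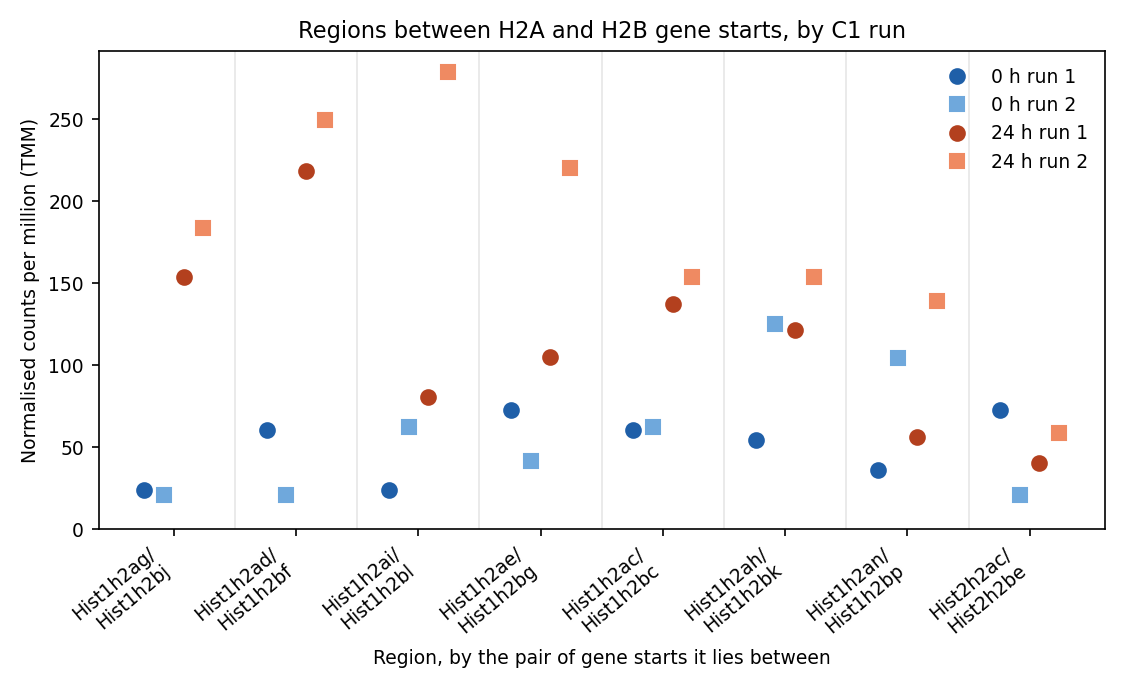
CPM (y axis) of the 8 regions that lie between head-to-head H2A and H2B gene starts (x axis), ordered by log2 change, with 1 point per C1 run. The 24-hour points lie above the 0-hour points in the first 5 regions, and the time-points overlap in the last 3.

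Shares of cells move with depth, and the cells of 0-hour run 1 were the deepest. After each cell was thinned to 837 counts, which left out 23 of 227 cells, a count in at least 1 shared region was found in 16 of 48 and 15 of 46 0-hour cells and in 21 of 47 and 36 of 63 24-hour cells. The mean number of shared regions detected per thinned cell was 0.33 in both runs at 0 hours, and 0.62 and 0.98 at 24 hours. The unthinned shares of cells were 64.6% (95% exact binomial interval 49.5 to 77.8%), 44.7% (30.2 to 59.9%), 60% (46.5 to 72.4%) and 83.3% (72.7 to 91.1%), in the order of the runs. Over all clustered regions, the mean number detected per thinned cell was 1.54 and 1.5 at 0 hours and 1.94 and 2.17 at 24 hours. For the variant regions these means were 0.31, 0.30, 0.38 and 0.48.

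Among the single H2A and H2B genes, Hist1h2bm, an H2B gene (chr13:21721887-21722036), held 10, 3, 16 and 32 counts. Its 24-hour runs were above its 0-hour runs, with a log2 change of 1.90 ± 0.63 (edgeR adjusted p = 0.210), ranging from 1.39 to 2.53 without 1 run. Hist1h2bh, another H2B gene whose region (chr13:23543393-23543543) lies within 1 kb of the Hist1h3f start as well, held 20, 11, 10 and 12 counts, and Hist1h2be (chr13:23621138-23621257) held 16, 11, 8 and 11. In normalised counts both had their 0-hour runs above their 24-hour runs, and the log2 changes were -0.48 ± 0.62 and -0.52 ± 0.66, less than 1 SE. The smallest log2 change of the clustered genes was that of Hist1h2ab, an H2A gene (chr13:23751017-23751136), which held 4, 6, 1 and 1 counts. Its log2 change was -2.29 ± 1.37, or -2.84 to -1.55 without 1 run, and counts this few set little limit on it.

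Of the H3 genes, Hist1h3a (chr13:23762360-23762508) held 9, 3, 14 and 19 counts with a log2 change of 1.48 ± 0.70 (edgeR adjusted p = 0.368), and both of its 24-hour runs were above both 0-hour runs. Hist1h3e, singled out after its values were seen, held 4, 4, 9 and 25 counts with a log2 change of 2.00 ± 0.76 (edgeR adjusted p = 0.273), which became 1.19 without 24-hour run 2 and 0.46 with thinned cells. Log2 changes over the 9 H3 regions ran from -0.83 to 2.00. The 11 H4 regions ran from -0.71 to 1.90, 6 of them over partly repeated sequence. The highest of the 11 was a region of Hist1h4a whose windows were all unique. It held 6 and 0 counts at 0 hours and 1 and 21 at 24 hours, so that its time-points overlapped. Its change was -1.28 without 24-hour run 2. Regions of the H1 genes Hist1h1c, Hist1h1a and Hist1h1e had log2 changes of -1.45, 0.51 and 1.32. Without 1 run these ranged from -3.22 to -0.64, from -0.16 to 0.98 and from 0.52 to 1.84.

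Of the variant genes, H2afx, which encodes the H2A.X that is phosphorylated at DNA breaks, had the most counts, with 16, 12, 17 and 20 (chr9:44334473-44334682). H2afz, which encodes H2A.Z, held 15, 11, 16 and 20 (chr3:137864367-137864490). Both had 24-hour runs above 0-hour runs in normalised counts, with log2 changes of 0.37 ± 0.57 and 0.44 ± 0.58, less than 1 SE. Without 1 run these ranged from 0.20 to 0.55 and from 0.29 to 0.60. With thinned cells the H2afz change was 1.84. H2afv, which encodes a second H2A.Z protein, held 14, 10, 8 and 19 counts with a log2 change of 0.13 ± 0.63 and overlapping time-points (chr11:6444474-6444581). The 2 regions of H3f3a, a gene for H3.3, held 17, 5, 11 and 20 counts (chr1:180813518-180813651) and 13, 5, 6 and 9 counts (chr1:180813986-180814138). Their log2 changes of 0.55 ± 0.63 and -0.22 ± 0.78 had opposite signs and were within 1 SE of 0, and the first ranged from 0.12 to 1.19 without 1 run.

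H2afj (chr6:136808151-136808296) held 3, 8, 14 and 13 counts with a log2 change of 1.16 ± 0.76, which was 0.34 without 0-hour run 1 and 2.46 without 0-hour run 2. H2afy (chr13:56135473-56135609), which encodes macroH2A1, held no count at 0 hours and 3 and 5 counts at 24 hours. These came from 2 and 4 cells. A region entered the matrix when at least 5 cells had a count, so this one did so through the 24-hour cells alone, and no fold is given for it.

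The proteins that serve histone genes were followed through the promoter regions of a pair of gene lists. Of 13 genes that act in the transcription or 3′ end processing of histone messages, 12 had a promoter region, and 0 of their 15 regions passed the edgeR threshold, while 2, those of Npat and Lsm11, had an unadjusted p under 0.05 and were higher at 24 hours, against 5.11% of all regions and 7.63% of the other promoters. In normalised counts 24-hour values lay wholly above 0-hour values for 6 of the 15 and wholly below for none, against 28% and 13.1% of the other promoters. The median log2 change was 0.39, with 13 positive and 2 negative values, beside 0.33 over the other promoters. Npat, a coactivator of histone genes that is phosphorylated at the onset of S phase, held 25, 8, 19 and 52 counts (chr9:53536835-53536989) in a region that lies between its start and that of Atm, and its log2 change was 1.14 ± 0.52 (edgeR adjusted p = 0.344). Its 24-hour values, 154 and 381 CPM, were above the 0-hour values of 152 and 83.6 CPM, the first only just. Without 24-hour run 1 the change was 1.63 with an edgeR adjusted p of 0.0460, and without 24-hour run 2 it was 0.32 with an adjusted p of 0.919. Slbp, which binds the stem-loop of histone messages, held 25, 12, 16 and 43 counts with a log2 change of 0.67 ± 0.52. Casp8ap2, also called FLASH, held 14, 21, 20 and 27 counts with a log2 change of 0.30 ± 0.54. Time-points overlapped in the normalised counts of both Slbp and Casp8ap2.

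Of 24 genes for histone chaperones and variant exchange, 22 had a promoter region. None of their 30 regions passed the edgeR threshold. Only 1, at Nasp, had an unadjusted p under 0.05, and it was lower at 24 hours, against 7.0% of all regions and 1.92% of the other promoters. It lay 778 bases from the start and held 3, 7, 0 and 1 counts. With so few 24-hour counts, it entered the matrix through the 0-hour cells. The Nasp region nearer the start held 16, 7, 5 and 2 counts, with a log2 change of -1.63 ± 0.87 and an edgeR unadjusted p of 0.066. In normalised counts 24-hour values lay wholly above 0-hour values for 7 of the 30 and wholly below for 9, against 28% and 13.1% of the other promoters. The median log2 change was 0.13, with 19 positive and 11 negative values, beside 0.33 over the other promoters. Nap1l4, a chaperone of H2A and H2B, held 27, 16, 25 and 20 counts with a log2 change of 0.07 ± 0.51. Anp32e, which removes H2A.Z, and Asf1b, a chaperone of H3 and H4, held 23, 10, 9 and 37 counts and 17, 20, 15 and 26 counts. The log2 changes of these regions were 0.48 ± 0.56 and 0.05 ± 0.54, within 1 SE of 0.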

How the data were processed

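Single-cell ATAC-seq libraries of B3 cells were mapped by the authors to mm10 with Bowtie2 after 3′ trimming, duplicate fragments were removed with Picard, and each cell was quantified in HOMER peaks called on bulk replicates. The authors deposited whole-number counts per region and cell without normalization. No value exceeds 2, and the sources used here leave the handling of higher values unstated. Bulk samples were not analysed here. The labels list 48, 63, 75 and 73 single cells in the 4 runs, and all 227 deposited columns were used. The split of these cells between the time-points and the number of regions differ from those the authors report.

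Counts were summed per C1 run. Every region was detected in at least 5 cells, so no filter was applied. All 20103 regions were tested with the quasi-likelihood test of edgeR 4.0.16 (R 4.3.3) on TMM-normalized sums, two-sided, with Benjamini-Hochberg adjustment. DESeq2 1.42.0 was an alternative, as were run totals or numbers of cells in place of TMM, a detection filter, detected or not detected values, thinned cells, a replicate block and each run left out. Scripts used Python 3.11.15, NumPy 2.4.6, SciPy 1.17.1 and Numba 0.67.0. The edgeR test was also run on simulated sums with a coefficient of variation between runs of 0.4, beside 0.42 in these data. It called 2 of 200 regions changed by 2 on the log2 scale and 63 of 200 changed by 3. A region short of the threshold is therefore not shown to be unchanged. The regions named are the 10 clustered and 6 variant ones with most counts, those with the largest and smallest change of each class, any past the threshold, and the 3 regions with most counts of each gene list. Others are named where a count turns on them, after their values were seen. The members and lists were chosen with earlier results of these data known. Intervals cover counting error only. No doublet caller was run, since each capture site was inspected. The result of a marker gene is not reported here.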

Additional observations from a re-analysis of the deposited data

How the results depend on the processing

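The 11 regions past the threshold over the whole matrix became 33 with run totals in place of TMM, 3 with the number of cells as offset, 18 under a filter of detection in at least 10% of cells, and 0 with detected or not detected values, with thinned cells and with DESeq2. With 1 run left out they ranged from 1 to 797, the highest without 24-hour run 1. Histone regions past the threshold ranged from 0 to 6 in the same fits, and regions of the histone mRNA and chaperone lists from 0 to 2. Every other alternative called 0 histone regions. With the run number as a replicate block, 11 of all regions and 0 histone regions passed; same-numbered runs share only a number, since their deviations correlated at -0.011 over 20103 regions.

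The log2 change in the share of clustered regions, 0.20 of promoter counts, was 0.52 with all regions as denominator, 0.35 over regions unique in all 30-base windows, 0.14 with thinned cells and 0.11 without the region with most counts. That of the variant regions, 0.07, was 0.40 with all regions as denominator. The change in the ratio of clustered to variant counts, 0.12, was 0.27 over unique regions and -0.021 with thinned cells. The cause of these shifts was not tested.

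The median log2 change of all regions moved from -0.06 to -0.51 when the number of cells was the offset and to -0.11 with run totals. Signs turned in these regions named by rule, and the report gives the turns of the others beside their values. Under the cell-number offset the log2 change became -0.33 for H2afv, -0.0055 for H2afz, -0.069 for H2afx, -0.057 for Casp8ap2, -0.046 for Anp32e, -0.38 for Nap1l4 and -0.34 for Asf1b. Under the detection filter it was -0.16 for H2afv, -0.19 for Nap1l4 and -0.23 for Asf1b. Thinning also moved Hist1h2ag/Hist1h2bj to 3.61, Hist1h2ad/Hist1h2bf to 4.05, Hist1h2ab to -4.48 and H2afj to 0.40, with few counts left per region. With thinned cells it was -0.015 for the first H3f3a region and -0.18 for Asf1b, with run totals -0.0098 for Asf1b, and with detected or not detected values 0.21 for the second H3f3a region. Over the fits that leave out a run, the log2 change lay from -0.47 to 0.16 for the second H3f3a region, from -0.52 to 0.58 for H2afv, from -0.26 to 1.08 for Casp8ap2, from -0.12 to 1.16 for Slbp, from -0.77 to 1.12 for Anp32e, from -0.17 to 0.29 for Nap1l4 and from -0.39 to 0.60 for Asf1b. All of these kept an adjusted p above the threshold. With 6 to 73 counts per histone region over 4 runs, depth and 2 runs per time-point limit what single regions can show.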

Other observations

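Besides genes for histones, the histone cluster of chromosome 13 holds many genes for transfer RNAs, which are transcribed by RNA polymerase III. The stretch from 21706143 to 23944462 of chromosome 13, which reaches 10 kb past the outermost histone starts, held 61 regions and 79 annotated tRNA genes. Of these regions, 36 were histone regions, 4 lay at promoters of other protein-coding genes, 14 had no protein-coding start but a tRNA gene within 1 kb, and 7 had neither. The 14 regions at tRNA genes held 72 and 35 counts at 0 hours and 82 and 87 at 24 hours. As a share of all counts this was 0.0438% and 0.0378% at 0 hours and 0.0669% and 0.0610% at 24 hours, with both 24-hour runs above both 0-hour runs. Their median log2 change was 0.44, with 12 positive and 2 negative values, beside 0.46 over the 36 histone regions of the same stretch. Of the 8738 other promoters of the whole matrix, 5644 had a positive value, with a median of 0.33, and their share of all counts was 0.32 higher on the log2 scale at 24 hours. The 7 regions with neither held 48 and 30 counts at 0 hours and 24 and 24 at 24 hours, and their median log2 change was -0.41, with 1 positive and 6 negative values. The 4 promoters of other genes held 26, 20, 16 and 24 counts in the order of the runs, with a median log2 change of -0.18, 1 value being positive and 3 negative. None of the 61 regions passed the edgeR threshold. These groups were formed after the values of the histone regions had been seen.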
